A study of Mus musculus with 6 samples.

Results

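The G1 cyclins, their kinases, and the RB and E2F proteins that they act on were examined as a set of 10 genes, *Ccnd1*, *Ccnd2*, *Ccnd3*, *Ccne1*, *Ccne2*, *Cdk2*, *Cdk4*, *Cdk6*, *Rb1* and *E2f1*. The genes were chosen by symbol, and where a symbol was on more than 1 entry of the expression table the entry with the highest mean was taken. All 10 were found among the 37755 entries, and all 10 were among the 12461 entries with a mean of at least 1 FPKM (fragments mapped to a gene, scaled for transcript length and for library size) that were tested. The study sequenced RNA of 3 primary cultures of mammary epithelial cells (MEC 1, MEC 2 and MEC 3) and of 3 mammary tumor cell lines (199, 233 and 336), with 1 library for each. Both groups are of the C57/Bl6J strain and carry Cre driven by the *Wap* promoter, which is active in luminal mammary epithelium late in pregnancy and in lactation.

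MEC carry Cre with intact JNK genes. For each MEC preparation 3 to 5 virgin females (10 to 12 weeks old) were pooled, and the cells were cultured on collagen I with serum, EGF and insulin. The MEKO lines carry Cre with deletion of *Mapk8* and *Mapk9*, which encode the kinases JNK1 and JNK2. Each line was grown from a dispersed tumor, passed 2 times on collagen I and then kept on standard dishes in serum medium, for which the methods name no EGF or insulin. Each is 1 line of 1 tumor, and the labels give no age for these mice. Genotype, tumor origin, growth medium and time in culture cannot be told apart in this design.

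Passage through G1 is governed by 2 classes of cyclin. D-type cyclins are induced by growth factor signals and bind CDK4 or CDK6, and these kinases phosphorylate RB, the protein that holds E2F factors in check. E-type cyclins with CDK2 add further phosphates, E2F factors are released, and genes for DNA replication are transcribed, among them the E-type cyclins themselves. In mammary epithelium cyclin D1 is needed for lobuloalveolar growth in pregnancy, and *CCND1* is a well-known amplified gene of human breast cancer.

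*Mapk8* and *Mapk9* were at 22.5 ± 2.98 and 22.7 ± 1.53 FPKM in MEC (SD, n = 3), and at 3.47 ± 2.30 and 4.61 ± 2.60 FPKM in MEKO. Read numbers are unknown, and FPKM values summed to 557991 to 638365 per library. Of 6 luminal markers, 5 were lower in MEKO by the test used below, and their summed level was 5352 to 8902 FPKM in MEC and 789 to 1962 FPKM in MEKO. The lines also differed among themselves in markers of other cell types. The luminal factor *Elf5* was at most 0.461 FPKM in any line. The 5 basal markers summed to 1259 to 2201 FPKM in MEC and to 1865, 9.90 and 45.0 FPKM in lines 199, 233 and 336. The 5 fibroblast markers summed to 95.2 to 178 FPKM in MEC and to 1081, 2.38 and 1.82 FPKM in the same lines. Both lists were mixed in line 199. Its *Krt5*, *Krt14* and *Trp63* were above the MEC range, and *Acta2*, at 719 FPKM, was just below its MEC range of 736 to 1452 FPKM. *Oxtr* was at 0.0125 FPKM, against 5.05 to 25.9 FPKM in MEC. Its fibroblast sum was mostly *Col1a1* and *Col1a2*, at 600 and 408 FPKM. These genes, *Col3a1* and *Pdgfra* were above the MEC range, while *Dcn* was at 0.311 FPKM against 3.29 to 6.62 FPKM in MEC. *Oxtr* and *Dcn* were called lower in MEKO (limma adjusted p = 0.0219 and 0.00821). Where RNA is from bulk culture, a mixture of cells and a change within cells cannot be told apart. Endothelial and adipocyte markers summed to at most 12.8 FPKM in any library, and leukocyte markers to at most 23.5 FPKM. The latter sum was that of line 336 and was nearly all *Cd68*. The other leukocyte markers, *Ptprc*, *Itgam* and *Cd3e*, were at most 0.00633 FPKM in that line.

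Sequence upstream of the start site was compared for the members with an entry in the RefSeq promoter table (GRCm38.p6), which held 6 of the 10 genes with 7 windows of 300 bases. The 250 bases before the start in these windows had a GC content of 59.6% to 77.6%, against a median of 52.4% for the same bases over all 32851 windows. The E2F motif, written as TTTCGCGC or TTTGGCGC and searched on both strands, was in 0 of the 7 windows and in 0.813% of all windows. The AP1 motif TGACTCA, a site for the JNK target JUN, was in 0 of 7 and in 5.20% of all. The TCF motif, CTTTGAT or CTTTGAA, was in 1 of 7, that of *Cdk4*, and in 8.65% of all. The E-box CACGTG, a site for MYC and related factors, was looked for after the *Cdk4* window had been read. It was in 2 of 7 windows and in 7.15% of all. The *Cdk4* window held 4 E-boxes, a number reached by 8 of the 32851 windows (0.0244%), and the *Cdk6* window held 1. The 250 bases before each start are shown for these 2 genes because they encode the kinases that bind the D-type cyclins, and because theirs were the windows with a match. Capitals mark the E-boxes and, in *Cdk4*, the TCF motif read on the other strand as ATCAAAG. The stretches are chr10:127063285-127063534 for *Cdk4* and chr5:3343643-3343892 for *Cdk6*, both on the plus strand, and the *Cdk6* start used by RefSeq lies inside the gene span that GENCODE gives below. The *E2f1* window, which begins at 154569377, also lies wholly inside its gene span, as does the *Ccnd3* window that begins at 47593217. For *Cdk6* and *E2f1* the motif search thus did not cover the bases before the GENCODE start.
Cdk4: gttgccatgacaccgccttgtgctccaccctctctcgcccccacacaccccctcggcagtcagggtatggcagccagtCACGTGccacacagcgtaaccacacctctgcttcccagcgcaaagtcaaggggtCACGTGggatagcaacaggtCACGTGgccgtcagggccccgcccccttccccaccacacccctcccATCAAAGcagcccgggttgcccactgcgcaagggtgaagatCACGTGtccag
Cdk6: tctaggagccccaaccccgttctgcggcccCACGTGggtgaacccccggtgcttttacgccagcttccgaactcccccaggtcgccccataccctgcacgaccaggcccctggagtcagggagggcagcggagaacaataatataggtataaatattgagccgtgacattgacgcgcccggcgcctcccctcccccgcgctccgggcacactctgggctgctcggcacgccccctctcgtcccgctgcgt
A match of letters is a description of the sequence and no measure of binding.

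Levels were tested with limma on log2(FPKM + 1) over all 12461 entries with Benjamini-Hochberg adjustment, and a gene was called with an adjusted p under 0.05 and a log2 fold change beyond 0.75. All fold changes and differences below are on this log2(FPKM + 1) scale unless said otherwise, which understates the change of low genes. No member was called in either direction, against 2.64% of tested genes called higher and 7.26% called lower in MEKO. With limma and no adjustment, 5 of the 10 had a p under 0.05 (*Ccnd1*, *Cdk4*, *Cdk6*, *Ccne2* and *Rb1*), as did 28.2% of all tested genes. For the same 5 genes the MEC and MEKO values did not overlap. In 4 of them every line was above every MEC preparation, which 18.5% of all tested genes also showed, and in *Rb1* every line was below, which 18.7% showed. Without line 233 the groups were apart in 7 members in the upward direction, with *Ccne1*, *Cdk2* and *E2f1* added, against 23.8% of all genes. The median log2 fold change was 0.47 over the members and 0.01 over all tested genes.

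**Figure D1:**
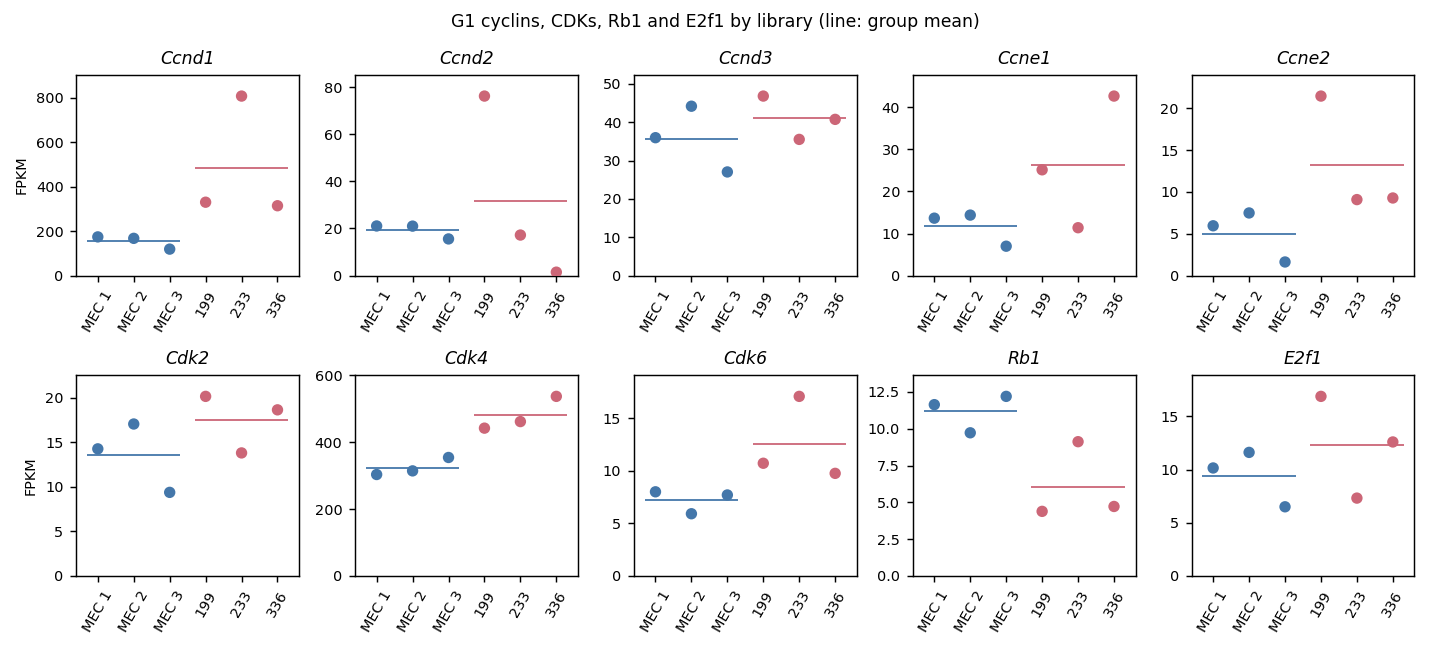
FPKM of each member in the 6 libraries, 1 panel a gene on its own linear axis from 0, with MEC in blue, MEKO in red and a line at each group mean. The lines are above every MEC preparation in *Ccnd1*, *Cdk4*, *Cdk6* and *Ccne2* and below in *Rb1*, and *Ccnd2* runs from 1.44 to 76.2 FPKM among the lines.

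*Ccnd1*, encoding cyclin D1 (chromosome 7 of GRCm38, 144929931 to 144939925, minus strand), was at 174, 167 and 119 FPKM in MEC 1, 2 and 3, and at 329.6, 806 and 314 FPKM in lines 199, 233 and 336. All 3 lines were above all 3 preparations, and line 233 was far above the other two. The means were 153 ± 30.03 and 483 ± 280.0 FPKM (SD, n = 3), and the lines stood at 2.15, 5.26 and 2.05 times the MEC mean. The log2 fold change of 1.53 (standard error 0.39, 95% interval 0.58 to 2.47) was the largest among the members and missed the threshold (limma adjusted p = 0.0586). A two-sided exact permutation test gave p = 0.1, which is the lowest value 3 libraries against 3 can reach. The call turned on single libraries. *Ccnd1* passed both thresholds in limma without line 233 (log2 fold change 1.08, adjusted p = 0.0432) and without line 199 (1.73, adjusted p = 0.0479). Without line 336 the limma adjusted p was 0.0659, and without MEC 1, MEC 2 or MEC 3 it was 0.152, 0.154 or 0.194. In the annotation 23.4% of the exon bases of *Ccnd1* lie in a gene on the opposite strand, listed in the table as *Oraov1*. That gene was at 4.93 to 10.8 FPKM in all 6 libraries, and the part of its reads in the level of *Ccnd1* was not tested.

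*Ccnd2*, encoding cyclin D2 (chromosome 6, 127125162 to 127152193), was at 21.1, 21.0 and 15.6 FPKM in MEC and at 76.2, 17.2 and 1.44 FPKM in lines 199, 233 and 336. Line 199 was above the MEC range, line 233 within it and line 336 below it, so the groups overlapped in a way no other member showed. The lines stood at 3.97, 0.896 and 0.0751 times the MEC mean. The highest line was 52.8 times the lowest, a spread exceeded by 5.02% of tested genes, while the MEC preparations spread 1.35 times. A mean of 31.6 ± 39.4 FPKM in MEKO against 19.2 ± 3.16 FPKM in MEC (SD, n = 3) therefore describes no single line. The log2 fold change was -0.41 with a 95% interval of -3.19 to 2.37 (limma adjusted p = 0.845), and it turned to 0.90 without line 336. Line 199 was also the highest line in the fibroblast and basal sums, whose members did not all go the same way, and lines 233 and 336 were both low in these sums. The part of other cell types in the level of *Ccnd2* was not tested.

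*Ccnd3*, encoding cyclin D3 (chromosome 17, 47505051 to 47599691), was at 36.0, 44.2 and 27.0 FPKM in MEC and at 46.8, 35.5 and 40.7 FPKM in lines 199, 233 and 336. The groups overlapped and the lines were close to each other. A log2 fold change of 0.21 was estimated (95% interval -0.31 to 0.74, limma adjusted p = 0.551). It moved to 0.03 without MEC 3, 0.12 without line 199, 0.38 without MEC 2 and 0.09 with sample weights. The 3 D-type cyclins thus gave different pictures, with *Ccnd1* higher in every line, *Ccnd3* near its MEC level and *Ccnd2* in 3 different places.

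FPKM is per length, so the 3 genes can be set against each other within a library. *Ccnd1* held 75.3%, 72.0% and 73.6% of the summed FPKM of the D-type cyclins in MEC, and 72.8%, 93.9% and 88.1% in lines 199, 233 and 336. In line 199 the makeup was near that of MEC although the sum was higher, since *Ccnd2* was high there as well. *Ccnd2* held 9.03% to 9.64% of the sum in MEC, and 16.8%, 2.00% and 0.405% in lines 199, 233 and 336. The share of *Ccnd1* was 73.6 ± 1.67% in MEC and 84.9 ± 10.9% in MEKO (SD, n = 3), and the groups overlapped (two-sided exact permutation p = 0.3, adjusted over the 5 shares and ratios 0.5). The summed level was 230.8, 232 and 161 FPKM in MEC and 453, 859 and 356 FPKM in the lines, so each line held more D-type cyclin transcript than any MEC preparation.

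**Figure D2:**
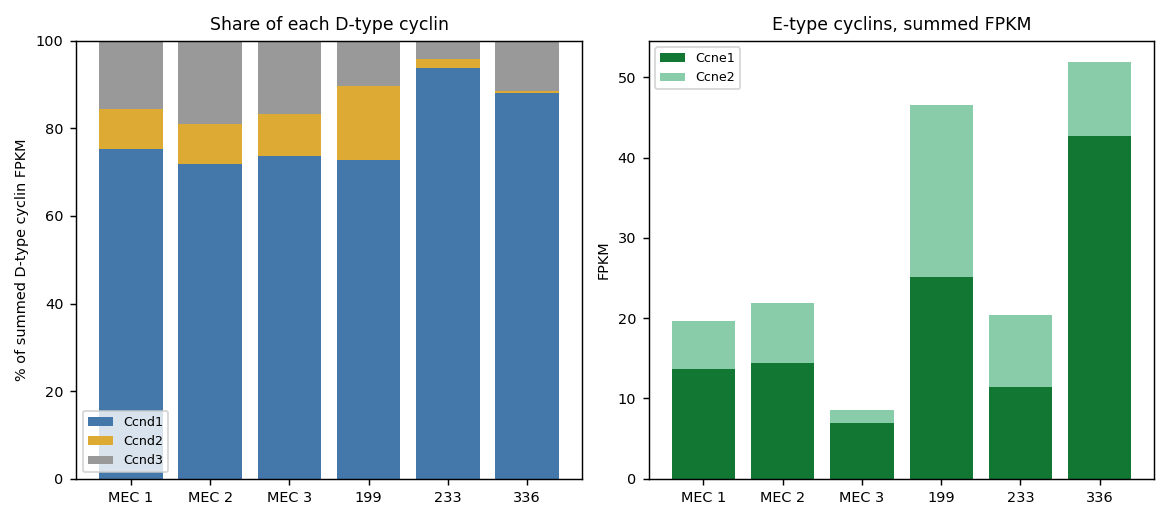
D-type cyclins in each library as the percent of their summed FPKM (left) and E-type cyclins as stacked FPKM (right). *Ccnd1* held 72.0% to 93.9% of the D-type sum, and the E-type sum was highest in lines 199 and 336, at 46.6 and 52.0 FPKM.

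*Cdk4*, the kinase partner of the D-type cyclins (chromosome 10, 127063534 to 127067920), was at 303, 314 and 354 FPKM in MEC and at 442, 462 and 537 FPKM in lines 199, 233 and 336. Every line was above every MEC preparation, with a gap of 87.8 FPKM between the groups, and both groups were tight. The means were 324 ± 26.8 and 480.5 ± 50.2 FPKM (SD, n = 3), and the lines stood at 1.36, 1.43 and 1.66 times the MEC mean. The log2 fold change of 0.57 (standard error 0.14, 95% interval 0.22 to 0.91) had the lowest adjusted p of the members, 0.0555 in limma, and was under the fold threshold. The promoter stretch printed above is that of this gene. In the annotation 19.7% of its exon bases are shared with *Tspan31*, and how reads were assigned by strand is not given in the sources used here.

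*Cdk6*, the other D-type partner (chromosome 5, 3341485 to 3531008), was at 7.99, 5.91 and 7.69 FPKM in MEC and at 10.7, 17.1 and 9.75 FPKM in lines 199, 233 and 336. The groups did not overlap, although line 336 was only 1.75 FPKM above the highest preparation. Line 233, which had the highest *Ccnd1*, also had the highest *Cdk6*. Between the groups the log2 fold change was 0.69 (standard error 0.25, 95% interval 0.10 to 1.29, limma adjusted p = 0.132). *Cdk4* made up 97.4%, 98.2% and 97.9% of the summed level of both kinases in MEC and 97.6%, 96.4% and 98.2% in the lines, so *Cdk6* was the minor transcript in every library. This share overlapped between the groups (two-sided exact permutation p = 0.7, 0.7 after adjustment).

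*Ccne1*, encoding cyclin E1 (chromosome 7, 38097984 to 38107534), was at 13.6, 14.4 and 6.98 FPKM in MEC and at 25.2, 11.4 and 42.7 FPKM in lines 199, 233 and 336. Lines 199 and 336 were above the MEC range and line 233 was inside it. The estimate was a log2 fold change of 0.99 (95% interval -0.21 to 2.19, limma adjusted p = 0.247), and 0.57 without line 336 or 0.59 with sample weights.

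*Ccne2*, encoding cyclin E2 (chromosome 4, 11191351 to 11204779), was at 5.95, 7.48 and 1.62 FPKM in MEC and at 21.4, 9.08 and 9.27 FPKM in the lines. All lines were above all preparations, with line 199 well above the others and lines 233 and 336 only just clear of MEC 2, by 1.60 FPKM for the nearer. The log2 fold change was 1.30 (95% interval 0.03 to 2.58, limma adjusted p = 0.172). It moved to 0.79 without MEC 3 and to 0.75 with sample weights. In the annotation 17.4% of its exon bases are shared with *Ints8* on the opposite strand, and the part of *Ints8* reads in its level was not tested. The share of *Ccne1* in the E-type sum was 69.6%, 65.8% and 81.1% in MEC and 54.0%, 55.6% and 82.2% in the lines, and did not separate the groups (two-sided exact permutation p = 0.6, 0.7 after adjustment). Cyclin E1 was thus the larger of the E-type transcripts in every library. The summed E-type level was 46.6, 20.5 and 52.0 FPKM in lines 199, 233 and 336, against 8.60 to 21.9 FPKM in MEC. Line 233, the line with the most *Ccnd1*, was the one that stayed within the MEC range here.

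*Cdk2*, the partner of the E-type cyclins (chromosome 10, 128697939 to 128705031), was at 14.3, 17.05 and 9.37 FPKM in MEC and at 20.2, 13.8 and 18.6 FPKM in lines 199, 233 and 336. Line 233 was again within the MEC range and the other lines above it, as in *Ccne1*. For this gene the log2 fold change was 0.37 (95% interval -0.25 to 0.99, limma adjusted p = 0.392), and 0.14 without MEC 3 or 0.17 with sample weights.

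*Rb1*, encoding the retinoblastoma protein (chromosome 14, 73183673 to 73325822), was at 11.6, 9.72 and 12.2 FPKM in MEC and at 4.38, 9.12 and 4.72 FPKM in lines 199, 233 and 336. It was the only member with every line below every preparation. Lines 199 and 336 were far below MEC, while line 233 was 0.605 FPKM below the lowest preparation. The means were 11.2 ± 1.30 and 6.07 ± 2.64 FPKM (SD, n = 3), a log2 fold change of -0.84 (standard error 0.28, 95% interval -1.51 to -0.17, limma adjusted p = 0.112). Without line 233 the log2 fold change was -1.13 and passed both thresholds (limma adjusted p = 0.0285). With any other library left out *Rb1* was not called (limma adjusted p 0.163 to 0.295). The table lists *Rb1* in 3 identical entries whose values carry up to 8 significant digits, whereas those of the other 9 members carry at most 6. How these values were made is not given in the sources used here, and the level of *Rb1* relative to other genes is uncertain for that reason. In the annotation 14.9% of its exon bases are shared with *Lpar6* and *Rcbtb2*, and the part of their reads in its level was not tested.

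*E2f1*, encoding the best studied activator E2F (chromosome 2, 154559407 to 154569892), was at 10.2, 11.6 and 6.50 FPKM in MEC and at 16.9, 7.32 and 12.6 FPKM in lines 199, 233 and 336. Line 233 was within the MEC range and the other lines above it, the pattern already seen in *Ccne1* and *Cdk2*. Its log2 fold change was 0.31 (95% interval -0.51 to 1.13, limma adjusted p = 0.576). It was 0.09 without MEC 3, 0.06 without line 199, 0.62 without line 233 and 0.0085 with sample weights.

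Ratios to *Rb1* were formed within each library, as log2 of plain FPKM with no pseudocount and under the limit on its level just given. The log2 ratio of *Ccnd1* to *Rb1* was 3.90, 4.10 and 3.28 in MEC and 6.23, 6.47 and 6.06 in lines 199, 233 and 336. The 3 lines were close to each other here, unlike in either gene alone, and all were above MEC by a mean difference of 2.49 (two-sided exact permutation p = 0.1, the lowest possible, and 0.5 after adjustment over 5). The groups had to be apart in this ratio, since every line was above MEC in *Ccnd1* and below MEC in *Rb1*. Its p value is thus no further support for a difference. As a fold, *Ccnd1* was 9.74 to 17.2 times *Rb1* in MEC and 66.5 to 88.4 times in MEKO. The log2 ratio of *E2f1* to *Rb1* was -0.20, 0.26 and -0.91 in MEC and 1.95, -0.32 and 1.42 in the lines. Lines 199 and 336 were above MEC, and line 233 was inside the MEC range (two-sided exact permutation p = 0.3, 0.5 after adjustment).

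**Figure D3:**
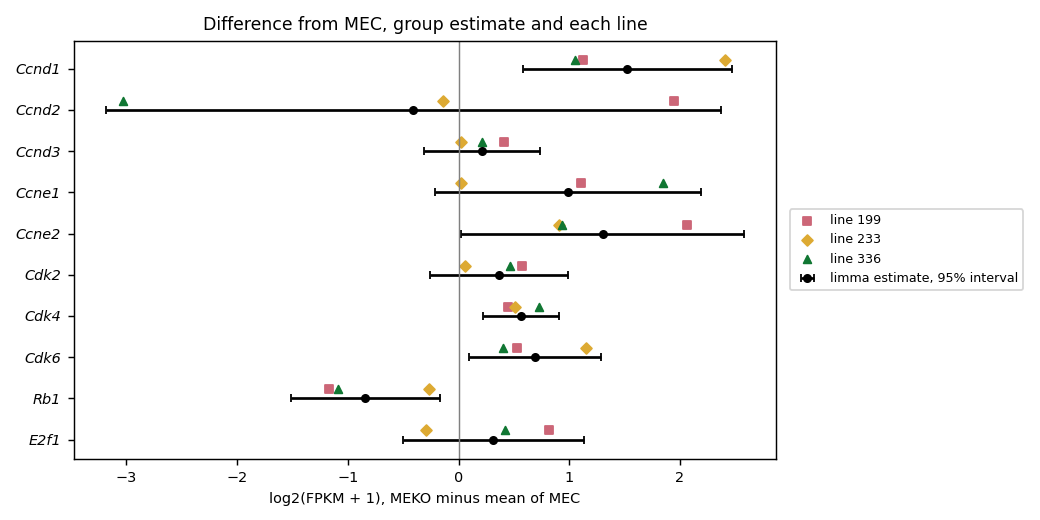
Difference of each member from MEC on the log2(FPKM + 1) scale, as the limma estimate with its 95% interval (black) and as each line minus the MEC mean (coloured). The intervals of *Ccnd1*, *Ccne2*, *Cdk4*, *Cdk6* and *Rb1* leave out 0, and in *Ccnd2* the lines fall on both sides of 0.

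Read by line, the members divided unevenly. In line 199, 9 members were above the MEC range and 1 was below it, against 40.2% and 39.1% of all tested genes. Line 233 had 4 above, 5 within and 1 below, against 37.4% above and 37.9% below over all genes. Line 336 had 7 above, 1 within and 2 below, against 39.2% and 37.4%. Line 233 thus combined the highest *Ccnd1* and *Cdk6* with levels of *Ccnd2*, *Ccnd3*, *Ccne1*, *Cdk2* and *E2f1* that lay inside the MEC range. In each of these 5 genes it was below MEC 1 and MEC 2, and only MEC 3 was lower. Line 199 was the highest of the lines in 5 members, and in 40.0% of all tested genes. Among the preparations, MEC 3 was lowest in 7 of 10 members and in 39.3% of all genes. The coefficient of variation was larger in MEKO than in MEC in 7 of 10 members and in 74.4% of all genes.

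By level, *Cdk4*, *Ccnd1*, *Ccnd3* and *Ccnd2* followed each other in MEC with no overlap between neighbours. Below them *Cdk2*, *Ccne1*, *Rb1*, *E2f1*, *Cdk6* and *Ccne2* came in that order of means. From *Ccnd2* and *Cdk2* downward each gene overlapped its neighbour. In MEKO *Ccnd1* and *Cdk4* overlapped at the top and were clear of *Ccnd3*. The remaining members, from *Ccnd3* down to *Rb1*, overlapped their neighbours throughout. *Rb1* had the lowest mean of the 10 in MEKO. The genes whose profile over the 6 libraries was most like that of *Cdk4*, the member with the lowest adjusted p, were *Grpel2* (Pearson's r = 0.9985), *Arfgef1* (0.9957) and *Tpp2* (0.9937), a description of 6 libraries that share their group labels.

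Other genes of the pathway were taken from 4 lists. Over all tested genes 2.64% were called higher and 7.26% lower. Of 15 further E2F family, DP, pocket protein and MuvB complex genes, all tested, 0 were called in limma, 9 had a log2 fold change above 0, and the median was 0.16. This median changed sign without MEC 3 (-0.020) and with sample weights (-0.058). In 6 of the 15 every line was above every preparation, and in 1, *Tfdp2*, every line was below, against 18.5% and 18.7% of all tested genes. The activator *E2f3* was at 11.7, 12.1 and 13.1 FPKM in MEC and at 29.7, 17.6 and 21.5 FPKM in lines 199, 233 and 336. The lines were clear of the tight MEC values, with a log2 fold change of 0.82 (limma adjusted p = 0.060). *E2f7*, an atypical repressor E2F, was at 2.26 ± 1.13 FPKM in MEC and 6.34 ± 1.51 FPKM in MEKO (SD, n = 3), a log2 fold change of 1.22 (limma adjusted p = 0.070). *E2f2*, named after its values were seen, was at 1.80 to 2.92 FPKM in MEC and at 0.761, 0.254 and 2.17 FPKM in the lines, and its groups overlapped (limma adjusted p = 0.205). The pocket proteins *Rbl1* and *Rbl2*, also named after their values were seen, were at 11.5 ± 3.50 and 9.16 ± 2.12 FPKM in MEC and at 12.6 ± 3.51 and 6.75 ± 0.888 FPKM in MEKO, with overlapping groups.

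Of 25 G1 regulators, mainly CDK inhibitors, CDK activators and ubiquitin ligase subunits, 22 were tested. In limma 2 were called higher and 0 lower, against 2.64% and 7.26% of all tested genes. The median log2 fold change was 0.37, or 0.23 without MEC 3, 0.21 without line 336 and 0.15 with sample weights. Every line was above every preparation in 5 of the 22 and below in 3. Over all tested genes these shares were 18.5% and 18.7%. *Cdkn2a*, whose locus encodes the inhibitors p16INK4a and p19ARF, was at 2.23, 1.39 and 7.54 FPKM in MEC and at 159, 87.8 and 246 FPKM in lines 199, 233 and 336. It rose in every line, with a log2 fold change of 5.24 (limma adjusted p = 0.0045), and gene-level values do not separate the 2 products. p16INK4a is known to bind CDK4 and CDK6 and to block their pairing with D-type cyclins. *Cdkn2a* and *Cdk4* were both at their highest in line 336, while *Ccnd1* was highest in line 233, where *Cdkn2a* was lowest of the lines. *Myc*, encoding a transcription factor that acts upstream of cyclins and CDKs, was at 73.8, 78.4 and 45.3 FPKM in MEC and at 138, 147 and 112 FPKM in the lines. It rose by a log2 fold change of 1.03 (limma adjusted p = 0.0486), but the call was lost under 6 of 8 other ways of processing and in each of the 6 fits with 1 library left out (limma adjusted p up to 0.128). The *Cdkn2a* call was lost in none of these 14 fits (limma adjusted p 0.00117 to 0.0318). Among those named after their values were seen, *Cdkn1a*, encoding the inhibitor p21, was at 85.2 to 97.6 FPKM in MEC and at 73.8, 268 and 304 FPKM in lines 199, 233 and 336. Line 199 was below the MEC range and the other lines were far above it. The INK4 gene *Cdkn2c* was at 6.47 ± 1.89 FPKM in MEC and 20.01 ± 8.41 FPKM in MEKO with no overlap (limma adjusted p = 0.0560). *Fbxw7*, a ubiquitin ligase subunit that directs cyclin E to degradation, was at 12.7 ± 2.80 and 6.77 ± 2.04 FPKM, with every line below every preparation (limma adjusted p = 0.092). Other such subunits were mixed. *Skp2* was at 4.58 ± 1.18 FPKM in MEC and 10.0 ± 2.72 FPKM in MEKO, with every line above (limma adjusted p = 0.064). *Fbxo4* was at 11.3 ± 0.996 and 7.49 ± 0.641 FPKM, with every line below (limma adjusted p = 0.081).

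Of 30 genes in common use as E2F targets at the G1/S boundary, 29 were tested. In limma 0 were called, all 29 had a log2 fold change above 0 (51.2% of all tested genes did), and the median was 0.58. In 5 of the 29 every line was above every preparation, a share no larger than the 18.5% of all tested genes. MEC 3 was lowest of the 6 libraries in 29 of 29. The mean log2 level over the list was 4.64, 4.82 and 3.61 in MEC and 5.33, 4.74 and 4.71 in lines 199, 233 and 336, so lines 233 and 336 lay between MEC 1 and MEC 2. Without MEC 3, and likewise with sample weights, the median log2 fold change was 0.23, and without line 199 it was 0.37. *Mcm7*, a subunit of the replicative helicase, was at 61.05 ± 19.2 FPKM in MEC and 100.5 ± 27.1 FPKM in MEKO (limma adjusted p = 0.182). *Prim1*, a primase subunit, was at 13.98 ± 6.58 and 25.0 ± 3.49 FPKM (limma adjusted p = 0.183). Line 199 was above the MEC range in 26 of the 29, line 233 in 13 and line 336 in 8.

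The 15 proliferation markers were read beside the members, several of which are known to vary through the cell cycle. In limma 0 were called, 15 of 15 had a log2 fold change above 0, and the median was 0.95, or 0.55 without MEC 3 and 0.52 with sample weights. Every line was above every preparation in 12 of the 15, against 18.5% of all tested genes. *Mki67* was at 13.9 ± 6.69 FPKM in MEC and 27.9 ± 3.48 FPKM in MEKO, and *Kif11*, a spindle motor, at 11.9 ± 4.23 and 25.7 ± 6.002 FPKM (limma adjusted p = 0.139 and 0.080). The mean log2 level was 4.98, 5.02 and 3.80 in MEC and 5.86, 5.32 and 5.30 in the lines, highest in line 199 and lowest in MEC 3. *Ccne1*, *Ccne2*, *Cdk2* and *E2f1* were lowest in MEC 3 among the 6 libraries as well. *Ccnd1* was lowest in MEC 3 too but highest in line 233, and *Cdk4* was highest of the preparations in MEC 3. The part of the share of cycling cells in these levels was not tested.

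**Figure D4:**
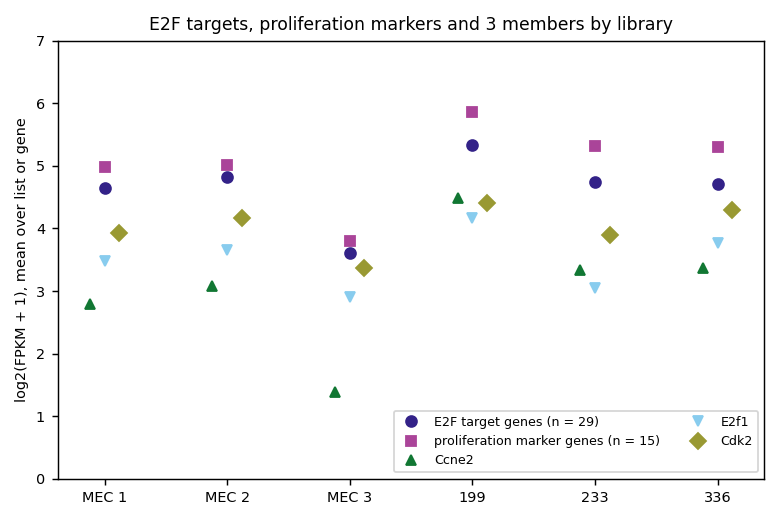
Mean log2(FPKM + 1) over 29 E2F target genes and over 15 proliferation markers in each library, with *Ccne2*, *E2f1* and *Cdk2* beside them. MEC 3 is lowest in all 5 series, and line 199 is highest in the means of both lists, at 5.33 and 5.86.

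The fold changes of the members were recomputed with other processing and with 1 library left out. *Ccnd1* stayed between 1.08 and 1.76 over the fits without 1 library, *Rb1* between -1.13 and -0.67, and *Ccnd2* ran from -1.59 to 0.90. *Cdk4* had a limma adjusted p under 0.05 in 3 of 14 alternatives, each with a fold change short of the threshold.

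**Figure D5:**
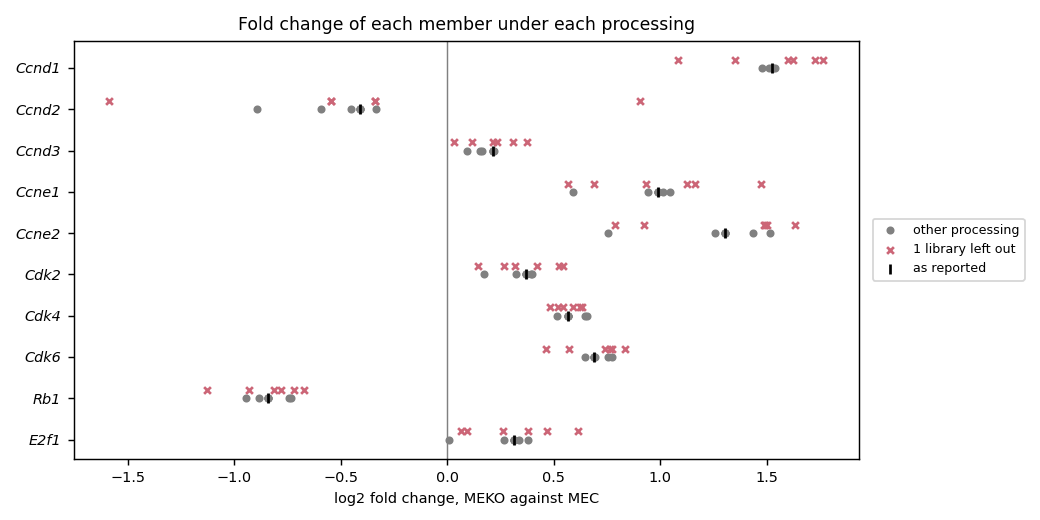
log2 fold change of each member, MEKO against MEC, as reported (bar), with other processing (grey points) and with 1 library left out (crosses). Every member except *Ccnd2* keeps its side of 0 in all points, and *Ccnd2* runs from -1.59 to 0.90.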

How the data were processed

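RNA-seq libraries of 3 MEC preparations and 3 MEKO lines were compared, with groups taken from the sample titles and genotypes. Per the study's methods and the submitters' processing notes, trimmed paired-end reads (150 bp) were mapped to GRCm38 with Bowtie2 and TopHat2 2.0.14 and quantified with Cufflinks 2.2.1. The deposited values are FPKM, which is scaled for transcript length and library size. In 552 entries, those of *Rb1* among them, a value carried more than 6 significant digits. Whether such values were changed after quantification is not given in the sources used here. FPKM holds no read numbers, so depth is unknown and no counting interval or floor was computed. The labels give no batch. Of 37755 entries, 2 held no FPKM, 15940 were at 0 in every library, 466 joined several genes and 86 symbols were repeated.

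Entries with a mean FPKM of at least 1 were tested on log2(FPKM + 1) in R 4.3.3 with limma 3.58.1 (mean-variance trend, Benjamini-Hochberg adjustment). Single shares and ratios were compared by exact permutation tests (two-sided, smallest p 0.1), adjusted over the 5. Each library is a separate preparation or line. The fit was tested on simulated data with changes set only in genes of higher level and lower spread. Changes in lower or more variable genes were not tried. Cuffdiff, which the authors used, needs reads and was not run here. Positions and exon overlaps came from GENCODE M21 on GRCm38, paired by symbol.

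The members and gene lists were chosen with earlier results of these data known. All members were named, and from each list up to 4 called genes by size of change or, where none was called, the 2 with the lowest p. Any other list gene was named after its values were seen. *Cdt1*, *Fbxo31* and *Cdk3* of the lists were not analysed here, and *Cables1* was under the filter. Alternatives were a pseudocount of 0.1, no filter, a filter at 5, quantile normalization, upper-quartile scaling, no trend, sample weights, the adjusted p alone and each library left out. Counting repeated entries once was chosen after seeing the data, as were the search for the E-box, the choice of *Oraov1* and the counts of members apart with 1 library left out.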

Additional observations from a re-analysis of the deposited data

How the results depend on the processing

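No paired analysis was possible because the groups share no replicate numbers. With sample weights 600 genes were higher and 1378 lower in MEKO in place of 329 and 905, and *Ccnd1* was the 1 member called higher (log2 fold change 1.54, limma adjusted p = 0.0179). Under the same weights the E2F family list had a median of -0.058 with 1 gene higher and 1 lower, and the G1 regulator list a median of 0.15 with 4 higher and 1 lower. With a filter at a mean FPKM of 5, 501 genes were lower. Quantile normalization called 2 E2F family genes higher and moved the share of calls that were higher from 26.7% to 37.9%. The G1 regulator list had 1 gene higher with a pseudocount of 0.1, no filter, a filter at 5, upper-quartile scaling or no trend, and 1 lower with no filter. The cause of these moves was not tested.

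With 1 library left out, genes called higher ran from 48 without MEC 1 to 568 without line 199, and genes called lower from 211 to 1398 without the same libraries. Members called higher and members called lower each ran from 0 to 1. *Ccnd1* ran from 1.08 to 1.76, *Rb1* from -1.13 to -0.67 and *Ccnd2* from -1.59 to 0.90, its sign reversed without line 336. The E2F family median ran from -0.020 to 0.31 with 0 to 1 genes higher and 0 to 1 lower, and the G1 regulator median from 0.21 to 0.39 with 1 to 3 higher and 0 to 3 lower. The difference in the share of *Cdk4* ran from -0.785 to 0.106 percentage points, reversed without line 233. Members with every line above MEC ran from 4 to 7, the latter without line 233. The share of all tested genes ran from 20.3% without MEC 1 to 26.0% without line 199, and was 23.8% without line 233. Over all alternatives the limma adjusted p of *Ccnd1* was 0.0179 to 0.194, of *Cdk4* 0.0166 to 0.215 and of *Rb1* 0.0285 to 0.295. *Ccnd3*, *Ccne1*, *Ccne2*, *Cdk2*, *Cdk6* and *E2f1* kept their direction and stayed uncalled under every alternative run. With 3 libraries a group and no read numbers, precision was set by the spread of libraries, and the standard error of the log2 fold change ran from 0.14 in *Cdk4* to 1.15 in *Ccnd2*.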
